A study of Mus musculus with 3 samples.

Results

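Complement is a cascade of serum and tissue proteins that marks surfaces for clearance. The classical and lectin pathways cleave C4 and C2, the alternative pathway cleaves factor B (*Cfb*) with factor D (*Cfd*) and is stabilised by properdin (*Cfp*), and all of them meet at C3. Host cells hold the cascade in check with soluble inhibitors such as C1 inhibitor (*Serping1*) and with membrane regulators such as decay-accelerating factor (*Cd55*). The anterior eye is known to make several of these proteins itself. The 8 genes followed here are *C2*, *Cfb*, *C3*, *C4b*, *Cfd*, *Cfp*, *Cd55* and *Serping1*, chosen by name from the 31053 genes of the count matrices, and all 8 were among the features.

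The cells came from the iridocorneal angle and limbus of 6-week-old mice of a mixed strain, crossed for 2 generations onto ICR to obtain albino animals, and were measured in 3 droplet libraries. The 2 control libraries came from *Angpt1* flox/flox mice (their titles call them WT), and the single *Angpt1*ΔNC library came from *Angpt1* flox/flox;Wnt1Cre+ mice, in which Wnt1-Cre removes the floxed gene from neural crest-derived cells. Each library pooled 2 to 3 animals, so the library is the replicate, the groups are 2 against 1, and the spread in every test came from both controls alone. The comparison asks how these genes are distributed over the cell types of the angle and how they differ where neural crest *Angpt1* is lost. Wnt1-Cre acts in neural crest derivatives at large and not in the angle alone, and endothelium, surface epithelium and leukocytes are not of that lineage.

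The kept cells held 76981606, 80346829 and 66484181 unique molecular identifiers (UMIs) in control replicate 1, control replicate 2 and *Angpt1*ΔNC, in 9076, 10160 and 6772 cells. *Angpt1* itself stood at 37.8 and 39.3 CPM (UMI counts scaled to a common total per library) in the controls and at 0.391 in *Angpt1*ΔNC. The pools were described as mixed in sex, but *Xist* gave 3 and 2 UMIs in the controls against 43346 in *Angpt1*ΔNC, and 29.4% of the *Angpt1*ΔNC cells were male-typed against 69.7% and 72.1% of the control cells, with 0 and 1 female-typed cells in the controls, so sex and genotype cannot be told apart over all cells. Control replicate 2 also stood apart in *Saa3*, an acute-phase gene, as given below. Libraries shared between 13 and 25 cell barcodes. A level below is the mean over cells of UMIs per 10,000 UMIs of the cell, given in the order control replicate 1, control replicate 2 and *Angpt1*ΔNC. Cells were named by the 35 labels deposited with the matrices, TM1 to TM11 for the stroma, SC (Schlemm's canal), LEC (lymphatic) and EC2 to EC4 for the endothelium and numbers for the other clusters. Most labels held the markers their names call for, but clusters 17 and 18, TM3, TM6, TM8 and TM9 held none of the fixed markers among their top 10 genes, and cluster 22 held immunoglobulin genes (*Igkc*, *Cd79a*) beside T cell genes (*Cd3g*, *Trbc2*). The labels come from clustering of the same cells, so the order of the levels across them is a description and carries no test.

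**Figure D1:**
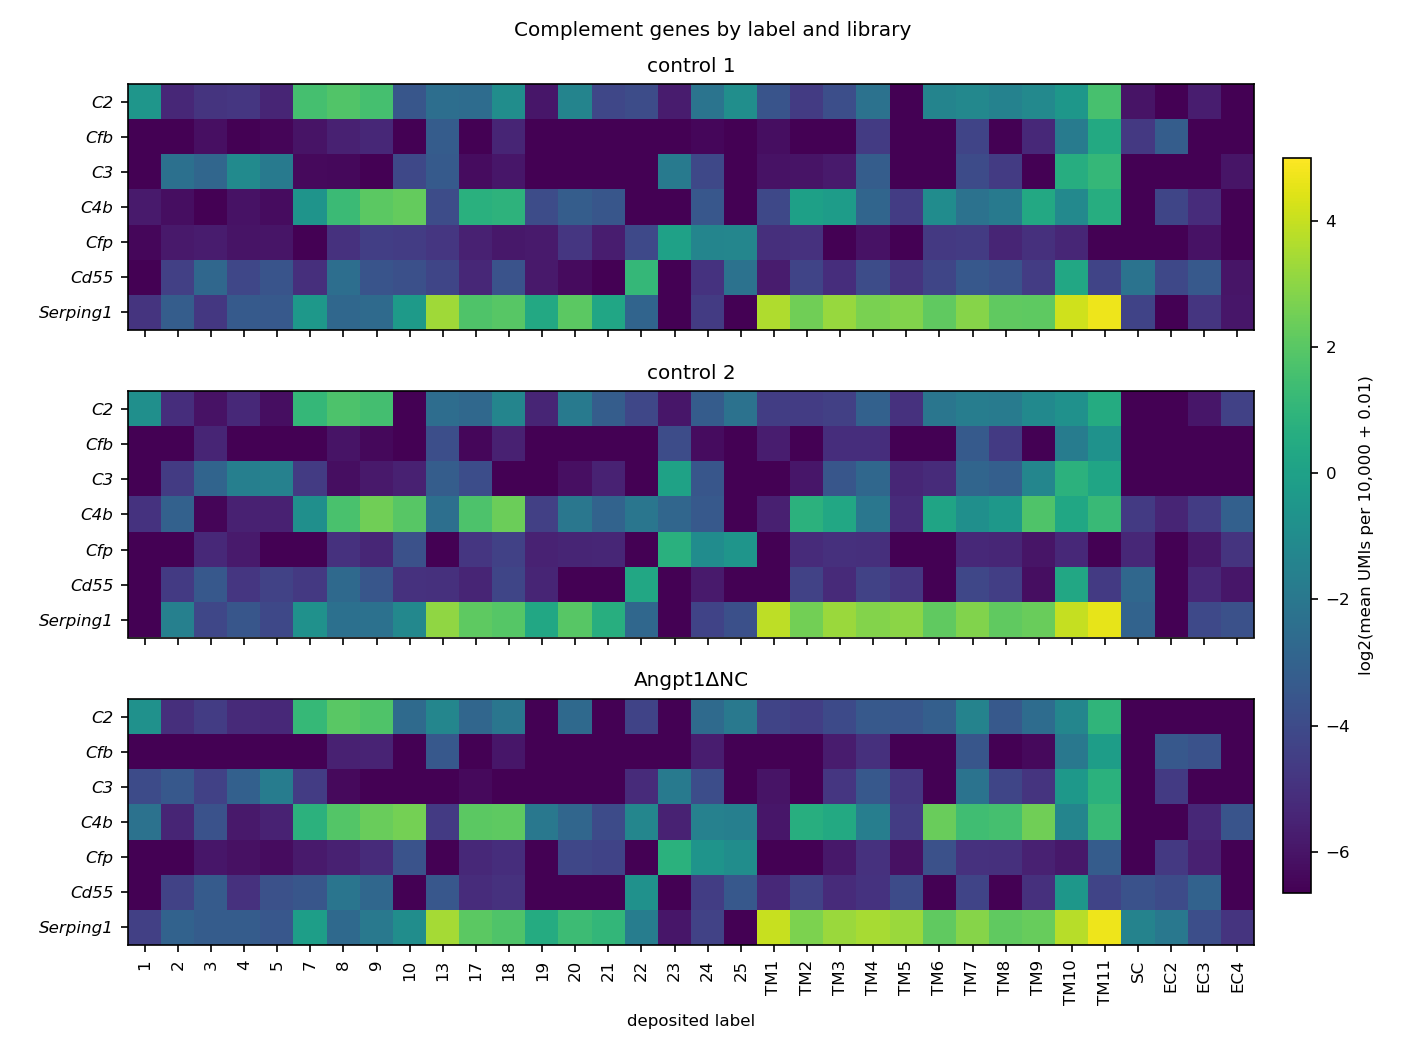
Level of 7 complement genes (rows) in 34 labels (columns) in each of the 3 libraries, as log2 of the mean UMIs per 10,000 plus 0.01. *Serping1* is high across the TM labels and cluster 13, *C2* in clusters 7 to 9 and TM11, *Cfp* in clusters 23 to 25 and *Cfb* in TM11 and TM10, in every library.

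*C2*, *Cfb* and *C4b* lie in the class III region of the major histocompatibility complex on chromosome 17. *C2* spans chr17:34862604-34898265 and *Cfb* chr17:34856374-34862518 (GRCm38, minus strand), with 85 bases between them, and *C4b* lies 112491 bases away at chr17:34728380-34743882. *C3* lies on the same chromosome at chr17:57203970-57228136, *Cfd* at chr10:79890853-79892655, *Cfp* at chrX:20925454-20931555, *Cd55* at chr1:130439027-130462744 and *Serping1* at chr2:84765387-84775444. The predicted gene *Gm20547* covers 6107 of the 6145 bases of *Cfb* and 19439 bases of *C2* on the same strand. It had 0 UMIs, and how reads that fit several of these genes were treated was not given in the sources used here, so the levels of *C2* and *Cfb* are uncertain. *C4a*, the close paralog of *C4b*, was not found by that symbol among the features, and whether its reads were counted as *C4b* was not tested.

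*C2*, the protease of the classical and lectin C3 convertase, was highest in the melanocyte and ciliary epithelium labels. Clusters 7 to 9 held 83.0%, 83.1% and 85.3% of its 6221, 4778 and 3812 UMIs. Its level was 3.59, 3.39 and 4.03 in cluster 8, where 94.99%, 94.1% and 98.2% of the cells carried it, and cluster 8 stood above all other labels in both controls. Cluster 9, the other melanocyte label, followed with 2.96, 2.85 and 3.43. Ciliary epithelium (cluster 7) held 2.97, 2.16 and 2.22, and clusters 9 and 7 overlapped in the controls with each other and with the small stromal label TM11 (3.04, 1.42 and 1.98). Retinal pigment epithelium (cluster 1) held 0.678, 0.538 and 0.586, close to fibroblast-like TM10 (0.710, 0.586 and 0.400). Endothelial cells of all labels together gave 3, 3 and 0 UMIs, in 0.678% and 0.917% of the cells and 0 of 209 cells, which allows a share of cells with a UMI of up to 1.44%. In limbal and corneal epithelium (clusters 4 and 5) that share was 3.74%, 1.48% and 2.74%. The genes most like *C2* over the 34 labels with at least 20 cells in each control were *Mitf* (mean Pearson r over both controls 0.77), *Tyrp1* (0.75) and *Lpl* (0.74), the first of which encodes the melanocyte master regulator and the next a melanin enzyme.

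*Cfb*, the protease of the alternative C3 convertase, was sparse, with 383 UMIs in 259 of 26008 cells. TM11 held 1.35, 0.596 and 0.888 and TM10 held 0.276, 0.286 and 0.244, and in the controls no other label reached 0.1. In TM11, 12 of 27, 13 of 46 and 14 of 49 cells carried it. Most of these also carried *C2*, 11 of the 12, 9 of the 13 and 12 of the 14, where 16, 25 and 25 of all TM11 cells carried *C2*. In TM10 *C2* was in 11 of 26, 5 of 19 and 13 of 30 *Cfb* cells, where 45 of 194, 40 of 167 and 33 of 188 of all TM10 cells carried *C2*. In melanocytes of cluster 8, where *C2* was highest, the *Cfb* level was 0.0111, 0.00511 and 0.0109. The genes most like *Cfb* were *Col6a6* (0.92), *Podn* (0.84) and *Clec3b* (0.83).

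*C3*, on which all pathways converge, divided mainly between epithelium and fibroblast-like stroma. Epithelium of clusters 4 and 5 held 56.4%, 41.4% and 47.1% of its 938, 1183 and 592 UMIs, and TM10 with TM11 held 26.7%, 20.03% and 27.7%. Per cell, the fibroblast labels led, with 1.51, 1.76 and 0.736 in TM10 and 2.14, 1.13 and 1.70 in TM11. Cluster 23, the dendritic cell label, held 0.260, 1.05 and 0.261, so that control replicate 2 lay far above the other libraries. Limbal epithelium (cluster 4) held 0.473, 0.312 and 0.111 and corneal epithelium (cluster 5) 0.263, 0.341 and 0.286. In cluster 4, cells with *C3* often carried *Lcn2*, an acute-phase lipocalin. *Lcn2* was present in 99 of 120, 74 of 92 and 68 of 77 cells with *C3*, and in 131 of 294, 154 of 415 and 366 of 564 cells without it. *Cfb* was the gene most like *C3* (0.74), ahead of *Osr2* (0.72) and *Col6a6* (0.71).

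*C4b*, the substrate that C1s cleaves to start the classical convertase, was the most widespread of the convertase genes. Melanocytes of cluster 9 (4.21, 5.58 and 5.01) and glia of cluster 10 (4.82, 3.94 and 5.98) held the highest levels, and their control ranges overlapped. Clusters 18 (1.83, 5.21 and 4.36), 8 (2.47, 3.12 and 3.71) and 17 (1.65, 3.35 and 4.20) and TM9 (1.30, 3.48 and 5.57) followed. Control replicate 2 lay above control replicate 1 in all of these but cluster 10. Corneal endothelium (TM2) held 0.978, 1.79 and 1.57 and TM11 1.51, 2.38 and 2.29. In limbal and corneal epithelium *C4b* was present in 0.708%, 1.98% and 1.76% of the cells. *Lhfpl2* (0.77), *Pi4k2b* (0.75) and *Cited1* (0.74) were most like it.

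*Cfd*, the protease that activates factor B and a product of fat cells, was not measurable. It gave 1 UMI in all 26008 cells, in a TM7 cell of control replicate 2. Of the adipocyte markers, *Cidec* and *Lep* had 0 UMIs, *Adipoq* had 14, 12 and 4, *Plin1* 4, 7 and 3 and *Retn* 7, 7 and 5. Others of the list were more frequent, *Plin4* with 91, 78 and 23. *Car3* had 1300, 4106 and 2321 UMIs (highest level in TM2) and *Fabp4* 1679, 1429 and 320 (highest level in EC4). *Cfp*, the stabiliser of the alternative convertase, is made by myeloid cells, and clusters 23 to 25 held 69.7%, 85.2% and 83.9% of its 307, 600 and 404 UMIs. Cluster 23 held 1.00, 1.66 and 1.70 and stood above cluster 25 (0.401, 0.658 and 0.508) and cluster 24 (0.383, 0.493 and 0.634). Outside the myeloid labels its level stayed under 0.1. *Fcgr4*, *Clec4a1* and *Clec10a* (each 0.97) were most like it.

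*Cd55*, which speeds the decay of convertases on the cell surface, was highest in 2 labels with no shared lineage. Cluster 22, the T cell label with its immunoglobulin genes, held 2.12, 1.25 and 0.576, and TM10 held 1.25, 1.27 and 0.709. Both labels were lower in *Angpt1*ΔNC than in either control. Its level in TM11 stayed under 0.1 although *C3* was high there, and 1, 1 and 2 of the TM11 cells carried *Cd55*. None of these was among the 9, 12 and 10 TM11 cells with *C3*, but they are too few to show an overlap. In TM10 24 of 61, 17 of 50 and 16 of 44 cells with *C3* carried *Cd55*, beside 74 of 194, 60 of 167 and 49 of 188 of all TM10 cells. SC endothelium followed with 0.204, 0.137 and 0.0671, on 9, 8 and 2 UMIs. *Icos*, *Cd27* and *Gata3* (each 0.68) were most like it, all genes of lymphocytes. The paralog *Cd55b* gave 3 UMIs in all.

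*Serping1*, the inhibitor of C1r, C1s and the MASPs, was the marker of stroma among these genes, with 76.5%, 77.0% and 75.2% of its 18898, 22833 and 19190 UMIs in TM1 to TM11. TM11 held 25.8, 23.8 and 25.8 and TM10 17.6, 15.8 and 13.6. TM1 followed with 12.3, 14.3 and 16.1, and these 3 labels stood apart from each other in the controls. The other TM labels lay between 4.33 and 9.60 in the controls, pericytes (cluster 20) at 4.15 and 3.88, and smooth muscle at 1.31 and 1.25 in cluster 19 and 1.16 and 1.57 in cluster 21. It was present in 12.2%, 8.79% and 13.5% of limbal and corneal epithelial cells and in 1.72%, 2.27% and 1.83% of myeloid cells. *C1rb* (0.97), *C1ra* (0.96) and *Col6a1* (0.96) were most like it, the first of them genes of its target protease.

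**Figure D2:**
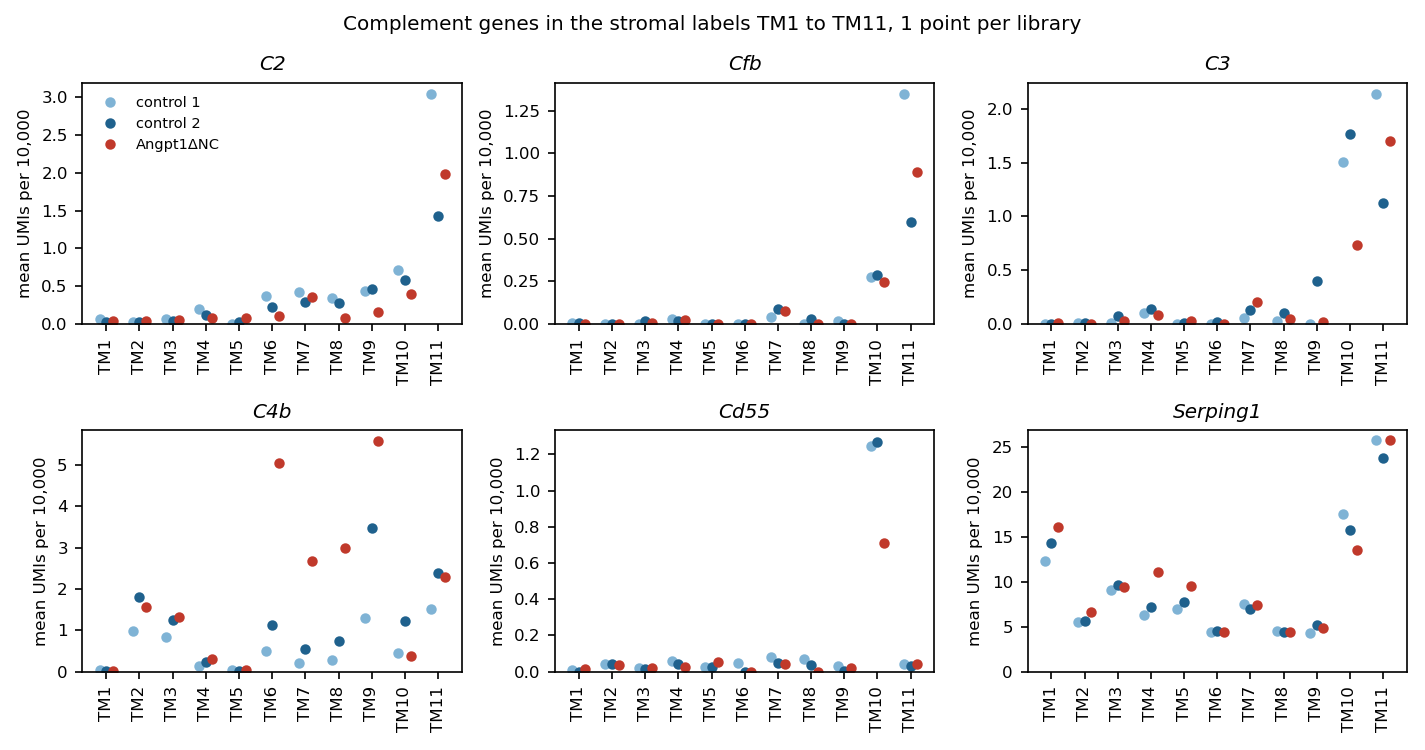
Mean UMIs per 10,000 of 6 complement genes in TM1 to TM11, with 1 point for each library (light and dark blue, control replicates 1 and 2, red, *Angpt1*ΔNC). *Cfb*, *C3* and *Cd55* are concentrated in TM10 or TM11, and *C4b* of *Angpt1*ΔNC lies above both controls in TM6 to TM9 and below them in TM10.

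TM11, with 27, 46 and 49 cells, stood above TM10, with 194, 167 and 188 cells, in *C2*, *Cfb* and *Serping1* in every library, and TM10 stood above TM11 in *Cd55*. Of the fixed fibroblast markers, the top 10 genes by fold of TM10 included *Clec3b*, *Pi16*, *Dpt*, *Cd34* and *Mfap5*, and those of TM11 *Dpt* alone. *Fmo2*, on the same list but outside the top 10, had its highest level in TM11 (1.05, 0.865 and 1.55).

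Against genotype, over all stromal cells 0 of the 7 members tested changed, where 8.97% of the 13942 genes were called (edgeR's quasi-likelihood test, Benjamini-Hochberg adjusted p under 0.05). At an unadjusted p under 0.05, 2 of the 7 members, *C2* and *C4b*, passed, where 25.8% of all genes did. *C4b* stood at 42.8, 96.0 and 168 CPM, above both controls in *Angpt1*ΔNC, with a log2 change of 1.26 ± 0.37 (SE) and an adjusted p of 0.0687. *C2* stood at 30.4, 21.05 and 16.8, with a log2 change of -0.60 ± 0.21 and an adjusted p of 0.112. *Serping1* stood at 791, 769 and 926 CPM (0.25 ± 0.14, adjusted p 0.300). In male-typed cells alone 3 members, *C2*, *C4b* and *Serping1*, were called, where 13.1% of genes were. DESeq2 called 0 (4.56% of genes), and without the filter on low counts *C2* and *C4b* were called (12.3% of genes).

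The *C4b* difference was large in TM6 to TM9. In TM7 its level was 0.198, 0.539 and 2.66, in TM8 0.268, 0.727 and 2.98, in TM6 0.497, 1.12 and 5.05 and in TM9 1.30, 3.48 and 5.57. In every one of these labels *Angpt1*ΔNC lay above both controls, and control replicate 2 lay above control replicate 1. The share of cells with *C4b* went from 9.14% and 20.3% to 56.1% in TM8, and from 16.1% and 30.8% to 72.0% in TM6. Fitted alone, *C4b* was called in TM7 (log2 change 2.83 ± 0.39, edgeR adjusted p 0.00616), TM8 (2.55 ± 0.40, 0.00420) and TM9 (1.42 ± 0.21, 1.15e-09), and not in TM6 (2.61 ± 0.41, 0.102). In these labels 5.07%, 3.58%, 15.1% and 0% of all genes were called, so that TM6 had no call for any gene. With TM6 to TM9 pooled, a grouping made after the values were seen, the counts were 304, 984 and 1868 UMIs and the log2 change was 2.63 ± 0.39 (adjusted p 0.00174, 13.5% of genes called). The make-up of this pool also differed, with 204, 298 and 327 cells from TM9 and 667, 739 and 174 from TM7. Against control replicate 2 alone the log2 changes in TM7, TM8 and TM9 were 2.24, 1.93 and 0.91, and against control replicate 1 alone 3.58, 3.39 and 2.31. DESeq2 called none of these (adjusted p 0.142 in TM7, 0.482 in TM8 and 0.878 in TM9).

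**Figure D3:**
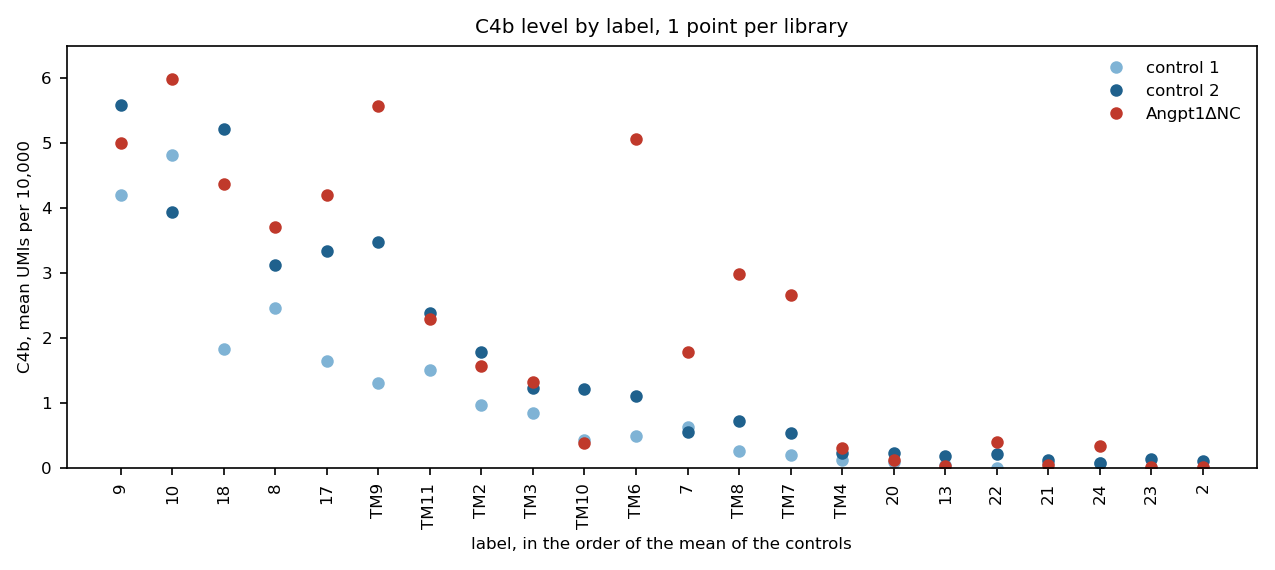
Mean *C4b* UMIs per 10,000 in the 22 labels with the highest mean of the controls, with 1 point for each library. The *Angpt1*ΔNC points lie above both controls in TM6 to TM9 and clusters 7, 8, 10 and 17 among others, within the controls in clusters 9 and 18, and below them in TM10 and clusters 13 and 21.

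The difference within TM7, TM8 and TM9 was as large in cells of 1 sex. Among male-typed cells of TM6 to TM9 the *C4b* level was 0.395 and 1.06 in the controls and 6.33 in *Angpt1*ΔNC, on 1062, 1255 and 166 cells, and the female-typed cells of *Angpt1*ΔNC held 3.19. TM9, the highest of these labels in the controls, gave 142, 219 and 96 of those male-typed cells. The pooled levels therefore also carry a shift in labels. Male-typed cells alone gave log2 changes of 3.24 in TM7, 2.93 in TM8 and 1.94 in TM9 (edgeR adjusted p 9.23e-07, 0.000247 and 0.00993). Limbal and corneal epithelium held 7, 21 and 16 UMIs of *C4b*, and the part of free RNA in the difference was not tested. The summed level of 7 endothelial markers in TM9 was 0.299, 0.254 and 1.63, that of 9 fibroblast markers in TM6 to TM9 ran from 6.02 to 17.5 in the controls and from 5.62 to 11.7 in *Angpt1*ΔNC, and that of 8 macrophage markers from 0.198 to 1.18 and from 0.325 to 0.71. The part of these cells in the *C4b* values was not tested. *Serping1*, in the same cells, stood at 611, 581 and 561 CPM in TM6 to TM9 (0.02 ± 0.15, adjusted p 0.948).

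TM10 went the other way. *C4b* there was 0.441, 1.22 and 0.387, below both controls in *Angpt1*ΔNC but close to control replicate 1, with a log2 change of -1.02 ± 0.29 (edgeR adjusted p 0.00733) that became -0.21 against control replicate 1 alone. The changes in TM7, TM8 and TM9 exceeded that in TM10 by 3.92 ± 0.28, 3.64 ± 0.29 and 2.51 ± 0.30 on the log2 scale (edgeR fit of both labels with the library as a block, adjusted p 3.42e-07, 6.29e-08 and 3.77e-14, 3.85%, 4.27% and 6.27% of genes called). These label pairs were chosen after their opposite calls in the same libraries were seen, so the differences add no further support. *C3* and *Cd55* were also lower in TM10. *C3* fell from 158 and 182 to 74.7 CPM (-1.14 ± 0.24, adjusted p 0.000118) and *Cd55* from 131 and 141 to 66.3 (-0.99 ± 0.24, 0.00122). *C2*, *Cfb* and *Serping1* passed no test in TM10, where 11.6% of all genes were called.

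Over the 29 labels with at least 50 cells in each library, 101 member-label pairs were tested and 16 were called, 8 higher and 8 lower, where 5.05% of all gene-label pairs were called, 2.54% higher and 2.52% lower. Of these 16, 15 lay outside both controls, as did 99.6% of the 12614 gene-label pairs called over all genes (5.03% of all pairs were both called and outside), so the members did not stand out in this. *C4b* was higher in 6 labels and lower in 1, and its median log2 change over the 21 labels in which it was tested was 0.54. In 13 of these 21 labels *Angpt1*ΔNC lay above both controls and in 2 below. By level it lay above both controls in 17 of 34 labels, below in 6 and within in 11. Outside the stroma *C4b* rose in ciliary epithelium (cluster 7) from 82.5 and 76.2 to 221 CPM (1.47 ± 0.22, adjusted p 0.0365, 0.788% of genes called). It rose in macrophages (cluster 24) from 7.79 and 9.39 to 33.2 (1.97 ± 0.24, 0.000398, 4.48% of genes called), and was present in 4.08%, 5.01% and 11.2% of those cells. In cluster 22 the counts were 0, 21 and 36 UMIs in 0, 4 and 6 cells, so the call there (1.76 ± 0.44, 0.00315, 4.03% of genes called) rested on few cells and on a control at 0. In cluster 17 *C4b* stood at 172, 316 and 413 CPM, with no call (0.91 ± 0.36, 0.249).

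**Figure D4:**
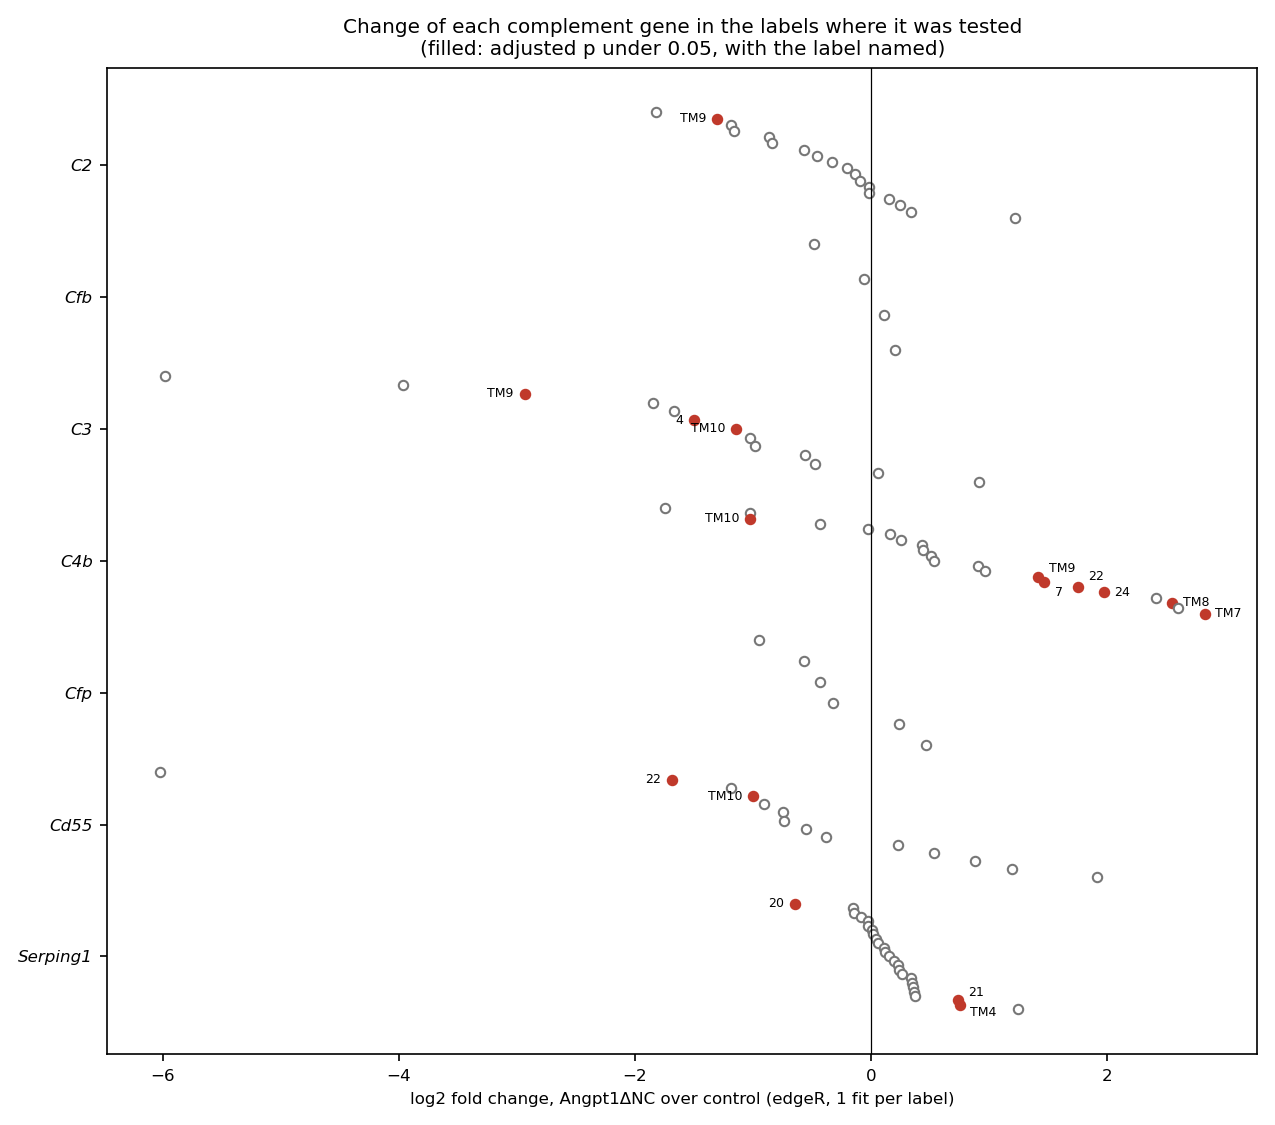
Log2 fold change of each gene (*Angpt1*ΔNC over control) in every label in which it was tested, with filled points for an edgeR adjusted p under 0.05 and the label beside them (the height within a row only separates points). *C4b* has 6 filled points above 0 and 1 below, and *C3* and *Cd55* have filled points below 0 alone.

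*C3* was lower in limbal epithelium (cluster 4), with 40.5, 26.1 and 10.5 CPM (-1.50 ± 0.24, adjusted p 1.56e-08, 11.9% of genes called), and this was the 1 pair that DESeq2 called as well (adjusted p 0.0150). The share of cells with *C3* was 29.0% (95% CI 24.7 to 33.6), 18.1% (14.9 to 21.8) and 12.01% (9.60 to 14.8), and after thinning each cell to 2000 UMIs 6.62%, 6.14% and 2.35%. In male-typed cells of cluster 4 alone the log2 change was -2.39. Male-typed cells of clusters 4 and 5 together held *C3* at 0.330 and 0.297 in the controls and 0.0725 in *Angpt1*ΔNC (45 UMIs in 315 cells). Cluster 4 gave 320 of 823, 372 of 810 and 219 of 315 of these cells, so the pooled levels also carry a shift in labels. Female-typed cells of *Angpt1*ΔNC held 0.228 (206 UMIs in 489 cells), nearer to the controls, but the labels were not matched. Corneal epithelium showed no such difference in level (0.263, 0.341 and 0.286), and over both labels 0 of the 5 members tested passed with edgeR (5.72% of genes called) or DESeq2. At an unadjusted p under 0.05, 1 of the 5 passed, *C3* (-0.65 ± 0.18, edgeR adjusted p 0.0818), where 23.1% of all genes did. Of 5 conjunctival markers 3 were higher in the same fit (*Krt19*, *Krt4* and *Muc4*), and their summed level was 0.546, 0.509 and 0.402 in cluster 4 and 0.444, 0.338 and 1.67 in cluster 5. In conjunctival epithelium itself (cluster 3) *C3* stood at 12.4, 11.5 and 3.35 CPM, with no call (-1.84 ± 0.40, edgeR adjusted p 0.588). The part of these cells in the *C3* values was not tested. *Lcn2*, which marked the *C3* cells of cluster 4, went the other way over both labels, with 1841, 1713 and 6429 UMIs (2.08 ± 0.15, adjusted p 0.000535).

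*C3* in TM9 and cluster 17 came almost wholly from control replicate 2. In TM9 the counts were 0, 55 and 5 UMIs in 0, 12 and 4 cells, so *Angpt1*ΔNC lay between the controls although edgeR called the pair (-2.93 ± 0.59, adjusted p 2.43e-05), and the sign turned against control replicate 1 alone (1.55). In cluster 17 they were 1, 31 and 1. In control replicate 2 the few cells that held *C3* in these labels also held *Saa3*. *Saa3* was present in 9 of the 12 TM9 cells with *C3* and in 9 of the 286 without, and in 7 of the 8 cells of cluster 17 with *C3* and in 13 of the 916 without. Over TM3, TM7 to TM9 and cluster 17 it was present in 28 of 56 cells with *C3* and in 48 of 2802 without. In TM10, where *C3* was high in every library, 2 of 50 *C3* cells held *Saa3*. Control replicate 2 held 5820 *Saa3* UMIs in these 5 labels against 67 in control replicate 1 and 290 in *Angpt1*ΔNC, and the part of this response in the *C3* counts was not tested.

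**Figure D5:**
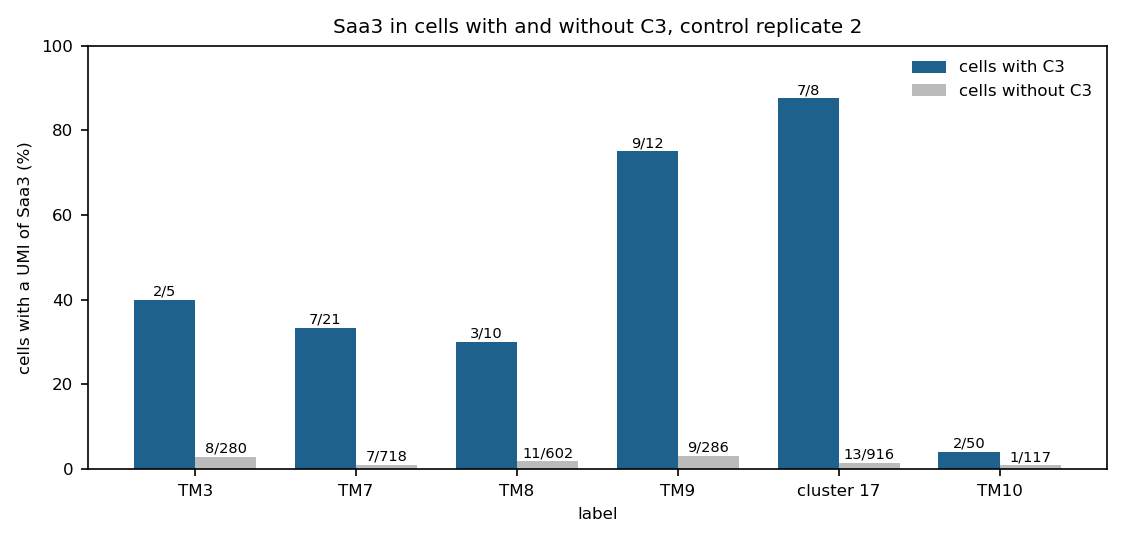
Share of cells (%) with at least 1 UMI of *Saa3* among cells with (blue) and without (grey) *C3* in control replicate 2, by label, with the counts above the bars. The share was 75.0% in TM9 and 87.5% in cluster 17 among *C3* cells and at most 3.15% among other cells, and in TM10 it was 4.00% of the *C3* cells.

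The 250 bases before the start of *C3* (RefSeq, GRCm38.p6, chr17:57228137-57228386, given on the minus strand) are shown because *C3* was the member whose cells were examined for *Saa3* and *Lcn2*. No other member was examined in this way. Capitals mark matches, on either strand and some of them overlapping, to a loose form of the NF-kB site, GGG and CC with any 5 bases between them.
C3: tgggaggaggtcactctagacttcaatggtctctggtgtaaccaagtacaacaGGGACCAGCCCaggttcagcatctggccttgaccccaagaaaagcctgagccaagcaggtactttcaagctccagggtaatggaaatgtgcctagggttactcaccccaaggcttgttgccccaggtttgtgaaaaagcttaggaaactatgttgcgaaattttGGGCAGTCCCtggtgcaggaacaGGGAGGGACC
The motif had 5 matches in the window of *C3*, 5 in *Cd55*, 2 in *Cfd* and 1 in *Cfp*, and was held by 50.8% of the 32851 promoters of the same length in the table (250 bases before to 50 after the start). The interferon-response motif, GAAA and GAAA with any 2 bases between them, was not found in the windows of *C3*, *Cfp*, *Cd55* and *Cfd*, and was held by 3.44% of all promoters. The motif TTCNNNGAA, with N for any base, was not found in these windows either, and was held by 8.30% of all promoters. No windows of *C2*, *Cfb*, *C4b* and *Serping1* were available, so these genes were not searched.

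The other regulators changed in single labels. *Cd55* in cluster 22 stood at 169, 105 and 40.3 CPM (-1.69 ± 0.43, edgeR adjusted p 0.00390), on 39, 44 and 14 UMIs, and in male-typed cells the log2 change was -0.87 (adjusted p 0.711). T cell markers there were higher in *Angpt1*ΔNC for *Cd3g* (levels 5.08, 4.60 and 11.3), *Cd3d* (3.22, 3.02 and 5.00), *Cd3e* (1.33, 1.09 and 2.42) and *Trbc2* (7.42, 7.65 and 8.75). *Trac* was not higher (1.40, 1.33 and 1.30). The part of the mix of cells in the *Cd55* value was not tested. *Serping1* rose in TM4 from 614 and 718 to 1098 CPM (0.75 ± 0.19, 0.0272) and in smooth muscle of cluster 21 from 125 and 168 to 231 (0.74 ± 0.25, 0.0449). It fell in pericytes (cluster 20) from 418 and 414 to 259 (-0.64 ± 0.17, 0.0251). The changes in TM4 and cluster 21 exceeded that in cluster 20 by 1.40 ± 0.19 and 1.38 ± 0.29 (adjusted p 4.36e-06 and 0.000299, 4.03% and 3.01% of genes called). In TM4, cluster 21 and cluster 20 alone 6.52%, 8.21% and 7.67% of genes were called. *C2* fell in TM9 from 47.8 and 46.1 to 17.6 CPM (-1.31 ± 0.32, 0.000733). In male-typed cells alone these calls were lost for *Serping1* in cluster 21 (0.49, edgeR adjusted p 0.458) and cluster 20 (-0.41, 0.270) and for *C2* in TM9 (-0.93, 0.182), and *Serping1* in TM4 kept its call (0.81, 0.0311). *Cfb* and *Cfp* were called in none of the 4 and 6 labels in which they were tested.

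In endothelial cells 1 of the 3 members tested was called, *Serping1* (2.38 ± 0.45, adjusted p 0.000225), where 12.9% of 9660 genes were called. It rested on 6, 17 and 35 UMIs, and 20 of the 35 came from the 12 LEC cells of *Angpt1*ΔNC, a label with 3 and 1 cells in the controls. Without LEC the counts were 6, 17 and 15 UMIs, and the call was lost (1.30 ± 0.62, adjusted p 0.222, 10.9% of genes called).

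In myeloid cells 1 of the 6 members tested was called, *C4b* (27, 51 and 101 UMIs, 1.85 ± 0.27, adjusted p 0.000135, 5.53% of 9883 genes called), and nearly all of it lay in cluster 24. Male-typed myeloid cells held *C4b* at 0.0981 and 0.110 in the controls and 0.433 in *Angpt1*ΔNC (48 UMIs in 143 cells). Female-typed myeloid cells of *Angpt1*ΔNC held 0.144 (30 UMIs in 251 cells), nearer to the controls. *Cfp* stood at 53.2, 88.2 and 90.7 CPM (0.42 ± 0.21, adjusted p 0.293), so *Angpt1*ΔNC lay just above control replicate 2. In cluster 17, 0 of the 5 members tested passed with edgeR, 0 at an unadjusted p under 0.05 and 0 with DESeq2, where 0.288%, 20.4% and 1.66% of 11444 genes did.

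The rest of the pathway was read from a list of 56 genes that includes the 8 members. In stromal cells 31 were tested, of which 2 rose and 6 fell, where 8.97% of all genes were called. *C1ra* rose from 74.8 and 63.5 to 152 CPM and *C1s1* from 138 and 94.6 to 206, while their paralogs *C1rb* (75.2 and 98.6 to 0.385) and *C1s2* (67.6 and 54.7 to 0.385) fell. Summed over the paralogs, *C1ra* with *C1rb* gave 150, 162 and 152 CPM and *C1s1* with *C1s2* 206, 149 and 206, so the first sum lay within the control range and the second at its upper end. These paralogs made up the 2 rises and 2 of the 6 falls. The loss was not confined to the stroma. Over all kept cells *C1rb* gave 1810, 2961 and 8 UMIs and *C1s2* 1712, 1709 and 6. How reads shared by these paralogs were assigned was not given in the sources used here. *Colec12*, a membrane collectin, fell from 272 and 265 to 162, *C7*, a terminal component, from 12.3 and 10.0 to 0.321, and *Vtn*, vitronectin, from 8.97 and 3.94 to 0.385. In endothelial cells 13 were tested, of which 4 rose (*C1qa*, *Clu*, *Cd93* and *Serping1*) and 1 fell, where 12.9% of all genes were called. *C1qa* is also a macrophage marker. The 5 macrophage markers tested in that fit had a median log2 change of 1.74, against -0.02 for all genes. The part of macrophage RNA in the *C1qa* value was not tested, and *Serping1* lost its call without LEC, as given above. In limbal and corneal epithelium 0 of 20 were called (5.72% of all genes), in myeloid cells *C4b* and *Fcna* rose among 23 (5.53%), and in cluster 17 *C1s2* fell among 21 (0.288%).

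Of 15 neighbours of *C2*, *Cfb* and *C4b* on chromosome 17, 14 were tested in stromal cells, and the counts that follow stand beside 8.97% of all genes called. *Tnxb*, the gene next to *C4b*, rose (44.7, 44.7 and 72.6 CPM) and *Dxo* fell (126, 134 and 63.4), and the other 12 passed no test. Interferon-induced genes moved both ways in the stroma, with 3 of 14 higher (*Iigp1*, *Ifit3* and *Gbp3*) and 3 lower, among them *Gbp2* and *Irf1*, at a median log2 change of -0.34 against -0.01 for all genes. Of the 12 NF-kB and acute-phase genes 1 rose (*Ccl2*) and 2 fell (*Icam1* and *Sod2*). Of 2 adipocyte genes tested *Fabp4* fell, and of 4 neutrophil genes *Mmp9* rose. Markers of other cells moved in the same fit, with 3 of 5 pericyte markers lower (*Rgs5*, *Kcnj8* and *Notch3*), 3 of 6 retinal pigment epithelium markers lower (*Rpe65*, *Rgr* and *Ttr*), 2 of 5 trabecular meshwork markers lower (*Chil1* and *Myoc*), 2 of 6 corneal stroma markers lower (*Ptgds* and *Kera*), 2 of 5 limbal markers higher (*Krt15* and *Krt5*) and 1 lower (*Gpha2*), 2 of 9 fibroblast markers higher (*Clec3b* and *Tnxb*), and of 6 endothelial markers 1 higher (*Cldn5*, 18, 32 and 377 UMIs) and 2 lower (*Tie1* and *Cdh5*), and their part in the values of the members was not tested.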

How the data were processed

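The 3 libraries hold, as deposited by the authors, raw UMI counts for 31053 genes in each called cell, without normalization. GEO's processing notes name Cell Ranger 2.1.1, Seurat 3.1.3 and mm10, while the matrix headers give Cell Ranger 3.0.2. Cells and labels are those the authors kept (9076, 10160 and 6772), after their own doublet removal. Their integrated natural log values were not used. The members and lists were chosen with earlier results of these data known. Depth ran from 1001 to 124288 UMIs per kept cell (medians 6329.5, 6393.5 and 7444), so a transcript near 1 UMI per 10,000 is missed in many cells. Shares have exact Clopper-Pearson 95% intervals, which cover counting error only.

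Counts were summed per library and class or label and tested with edgeR 4.0.16 in R 4.3.3 (TMM factors, filterByExpr, quasi-likelihood F-test, 2 controls against 1 *Angpt1*ΔNC library, 1 residual degree of freedom), adjusted over all genes tested by Benjamini-Hochberg and called under 0.05. The lone library is assumed to vary like the controls. The p-values use a spread that edgeR shares across genes, so a gene's own difference between the controls can count for little. *C4b* in TM9, for example, was called although its levels in the controls were 1.30 and 3.48. The SE was taken as the log2 change over the square root of F. The fits were repeated with DESeq2 1.42.0, with RLE size factors, unfiltered, on as many cells from each library, on male-typed cells (at least 1 UMI from the Y chromosome, *Xist* at 0), with TM labels weighted alike and, for fold changes, against 1 control at a time. The pools without LEC and of TM6 to TM9, the differences between labels, male-typed cells in single labels and the cells with *C3* and *Saa3* were added after the values were seen. Likeness is the Pearson correlation of log2(level + 0.1) across labels, among 6957 genes, which share libraries and depth. The scripts were tested on simulated data with known changes. The genes named are the 8 members, the pathway genes that passed a test in a class, and the 3 genes most like each member. Genes of the other lists (adipocyte, neutrophil, interferon-induced, NF-kB, chromosome 17 neighbours, markers) were named after their values were seen. Positions come from GENCODE M21 (GRCm38). Python 3.11.15, numpy 2.4.6, pandas 2.3.3, scipy 1.17.1 and matplotlib 3.10.9 were used. Some genes of the lists are counted but not reported here by name.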

Additional observations from a re-analysis of the deposited data

Results flagged for a closer look

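Changes of opposite direction in 2 labels were compared in a fit of both labels with the library as a block. Only 5 such differences were tested, and all 5 passed. The label pairs were chosen after their opposite calls in the same libraries were seen, so the passes add no further support. For *C4b* the change in *Angpt1*ΔNC was larger in TM7, TM8 and TM9 than in TM10 by 3.92, 3.64 and 2.51 on the log2 scale. For *Serping1* it was larger in TM4 and in smooth muscle of cluster 21 than in pericytes of cluster 20 by 1.40 and 1.38.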

How the results depend on the processing

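The count of members called in stromal cells went from 0 to 2 without the filter on low counts, to 3 in male-typed cells and to 2 in TM6 to TM9 alone. In endothelial cells it went from 1 to 0 with DESeq2, with equal numbers of cells and without LEC. In myeloid cells it went from 1 to 0 with DESeq2, in limbal and corneal epithelium from 0 to 1 without the filter, and in cluster 17 from 0 to 2 with equal numbers of cells and to 1 in male-typed cells. In single labels 16 pairs were called, against 1 with DESeq2, 16 with the other size factor, 21 without the filter and 11 in male-typed cells, 9 of which were among the 16. Of the 16, 15 lay outside both controls, as did 99.6% of the pairs called over all genes. Leaving out a control gave fold changes alone, and no count of calls. The sign turned for *Cfb* (-0.67) and *Cfp* (0.30) in TM6 to TM9 alone, for *Cfp* in male-typed stromal cells (0.27), for *Cd55* in endothelial cells without LEC (-0.19) and in male-typed ones (-6.51, where *Angpt1*ΔNC had 0 UMIs), for *C2* in cluster 17 with equal numbers of cells (0.12), none of them called, and for *C3* in TM9 without control replicate 2 (1.55, and -3.33 without control replicate 1). The cause was not tested. Of the 7 measurable members, 5 to 7 kept their highest label: without control replicate 1 or 2, 6 and 5 did. No paired analysis was possible because the groups share fewer than 2 replicate numbers.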
